A study of Sus scrofa with 4 samples.

Results

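The FGF ligands and receptors with known roles in the hair cycle were examined in sorted pig epidermal cells. The set was chosen by gene name and holds 6 ligands (FGF1, FGF2, FGF5, FGF7, FGF18 and FGF22) and the 4 receptors FGFR1 to FGFR4. All 10 genes were found by symbol among the 29837 named entries of the count table. The cells came from the skin of 2 juvenile pigs, 88R and 95R, which carry H2B-GFP, a nuclear green fluorescent protein, knocked into 1 allele of LGR5. The pigs descend from edited clonal fibroblasts by nuclear transfer, in the same or the previous generation, and the insertion lies in exon 1 of the edited allele in both populations, with the other allele intact. Hair and epidermis were peeled from the dermis with dispase, dissociated with trypsin and sorted as live cells. Each pig gave 1 library of bright GFP cells, LGR5-high, and 1 library of cells without GFP, LGR5-negative. Because H2B-GFP stays in the nucleus and is diluted by division, bright cells may include some whose LGR5 promoter was active earlier.

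FGF ligands are secreted proteins that bind receptor tyrosine kinases at the cell surface together with heparan sulfate chains. The receptors signal through the adaptor FRS2 to the RAS and ERK kinases, and the ERK pathway induces its own inhibitors. In the hair follicle, FGF5 is known as the signal that ends the growth phase, FGF18 as a signal of the resting bulge, and FGF7 and FGF10 as products of the dermal papilla that act on the epithelium through an FGFR2 splice form.

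The ligands that passed the test were higher in LGR5-high, and the receptors that passed it were lower. FGF5, FGF18, FGF1 and FGF2 were higher in LGR5-high, FGFR2 and FGFR3 were lower, and FGF22 and FGFR1 did not pass the test. FGF7 and FGFR4 were at or close to the limit of detection in all 4 libraries. Of the 10 genes, 8 passed the filter on low counts, of which 4 were called higher and 2 lower. FGF5 passed it through LGR5-high alone, and where 10 counts were required in every library 3 were higher and 2 lower. Calls here are those of the quasi-likelihood test in edgeR, adjusted over all genes by Benjamini-Hochberg, at a threshold of 0.05. Among all 15980 genes tested, 22.7% were called higher and 22.0% lower, 44.7% in all. The 8 tested genes had a median log2 fold change of 1.46, against 0.02 for all tested genes. This median joins ligands and receptors that moved in opposite directions. It also includes FGF5, estimated against 0 counts, so it does not describe a shift of the set. In bulk RNA, fewer cells of one type and less RNA per cell cannot be told apart. Levels are given as CPM, the usual depth-normalised count after TMM scaling between libraries, and they are compared between libraries but not between genes, since no transcript lengths were used.

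**Figure D1:**
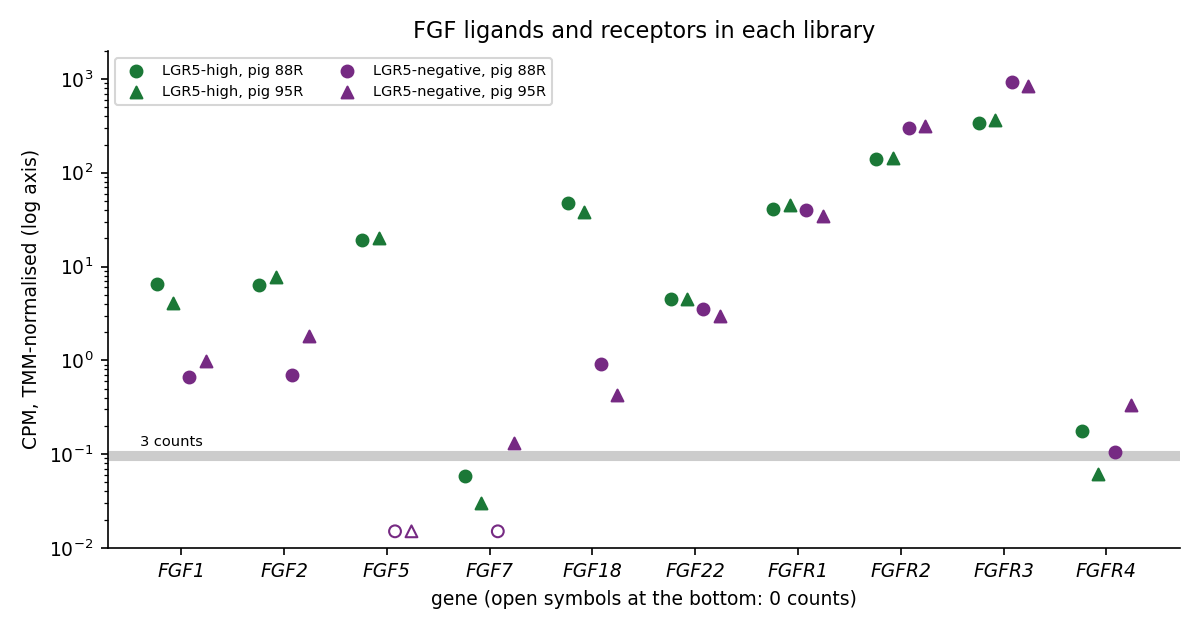
CPM of the 10 genes on a log axis in each of the 4 libraries, with LGR5-high in green, LGR5-negative in purple, pig 88R as circles and pig 95R as triangles. The grey band is the CPM of 3 counts, and the open symbols at the bottom are libraries with 0 counts, which for FGF5 are both LGR5-negative libraries.

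FGF5 was detected in LGR5-high and not in LGR5-negative. The LGR5-high libraries held 653 counts in pig 88R and 659 in pig 95R, which is 19.0 and 19.9 CPM. Both LGR5-negative libraries held 0 counts, which allows up to 0.105 CPM in pig 88R and 0.0993 CPM in pig 95R. Against this floor of 3 counts per library, FGF5 was at least 190-fold higher in LGR5-high (edgeR adjusted p = 9.93e-05). Over the alternatives that kept FGF5 in the test, the adjusted p-value was at most 0.032. This range leaves out the filter that required counts in every library, which FGF5 did not pass. FGF5 passed the main filter on low counts through LGR5-high alone, so these p-values are no separate support for its direction. The difference rests on the counts themselves. The 2 LGR5-high libraries differed by less than 1 CPM, and the result was carried by both pigs. By RefSeq (Sscrofa11.1, read here only for names and neighbouring genes), FGF5 overlaps 1 long noncoding RNA, LOC106508356. This gene had 22 and 20 counts in LGR5-high and 0 and 1 in LGR5-negative (edgeR adjusted p = 0.00505). The strand setting of the counting is not given in the sources used here, so reads of this RNA and of FGF5 cannot be told apart where they overlap.

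FGF18 was the other ligand with a large difference. Pig 88R had 1651 counts in LGR5-high and 26 in LGR5-negative, or 48.0 and 0.912 CPM. Pig 95R had 1263 and 13 counts, or 38.2 and 0.43 CPM. The populations did not overlap, and the log2 fold change was 6.01 (SE, the standard error, 0.31), a 64.4-fold difference (edgeR adjusted p = 1.15e-04). Only 112 of the 15980 tested genes, or 0.701%, were called higher with a log2 fold change at least as large, a group that includes FGF5 and other genes estimated against 0 counts. The estimates of the single pigs were 5.62 for 88R and 6.28 for 95R, and without the LGR5-negative library of pig 88R the log2 fold change was 6.63. FGF5 and FGF18 together made up 79.3% and 78.2% of the counts on the 6 ligands in LGR5-high of pig 88R and of pig 95R. In the LGR5-negative libraries they made up 15.7% and 6.77%. These shares do not depend on the scaling between libraries, but a longer transcript takes a larger share of reads.

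FGF1 and FGF2, which have no classical secretion signal, were also higher in LGR5-high. FGF1 can activate all 4 receptors, and FGF2 is a broad growth factor bound to the matrix. FGF1 had 6.57 and 4.09 CPM in LGR5-high against 0.667 and 0.993 in LGR5-negative, for pigs 88R and 95R. Its log2 fold change was 2.67 (SE 0.37, edgeR adjusted p = 0.00275). FGF2 had 6.37 and 7.69 CPM in LGR5-high against 0.702 and 1.82 in LGR5-negative. Its log2 fold change was 2.47 (SE 0.44, edgeR adjusted p = 0.00676). Neither gene overlapped between the populations, and both differences were larger in pig 88R, with single-pig estimates of 3.18 and 1.97 for FGF1 and of 3.07 and 2.04 for FGF2. Both calls were lost with Bonferroni adjustment and with the alternative test on log2(CPM + 1). Without the LGR5-negative library of pig 95R the log2 fold change of FGF2 was 3.31. FGF2 overlaps the gene NUDT6 in the annotation, which had 174 and 182 counts in LGR5-high and 108 and 158 in LGR5-negative (log2 fold change 0.23, edgeR adjusted p = 0.467).

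FGF22, a ligand described in the inner root sheath, did not pass the test. It had 4.45 CPM in both LGR5-high libraries against 3.54 and 2.98 in LGR5-negative. All values of LGR5-high lay above those of LGR5-negative, but the log2 fold change of 0.45 (SE 0.22) was not called (edgeR adjusted p = 0.151). Without TMM, on library size only, it passed at 0.67 (adjusted p = 0.0482). In the annotation FGF22 overlaps RNF126, which had a log2 fold change of -0.13 (SE 0.09, edgeR adjusted p = 0.262).

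FGF7, the keratinocyte growth factor, was barely detected. It had 2 and 1 counts in LGR5-high and 0 and 4 in LGR5-negative, did not enter the test, and the populations overlapped. No difference was detectable at this depth. The dermal papilla and fibroblast markers give the background for such mesenchymal ligands. Among the 16 listed genes, 11 were tested, 3 were higher and 6 lower in LGR5-high, and their summed level was 270.4 and 483 CPM in LGR5-high against 406 and 299 in LGR5-negative. The collagen COL1A1 made up most of the sum in LGR5-high, with 142 and 331 CPM against 94.0 and 37.3, and was called higher with FBLN1 and VCAN. Called lower were PDGFRA, a defining fibroblast receptor with 4 and 3 counts in LGR5-high and 21 in each LGR5-negative library, and DCN, LUM, COL3A1, DPT and VIM. Of the papilla genes, CORIN had 17 to 23 counts in every library, and ALX4 had at most 1 in any library. SOX2 had 3 and 5 counts in LGR5-high and 0 in LGR5-negative, and CRABP1 had 7 and 9 against 5 and 3. RSPO3 went the other way, with 1 count in each LGR5-high library and 6 and 13 in LGR5-negative. The part of such cells in the ligand counts was not tested.

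**Figure D2:**
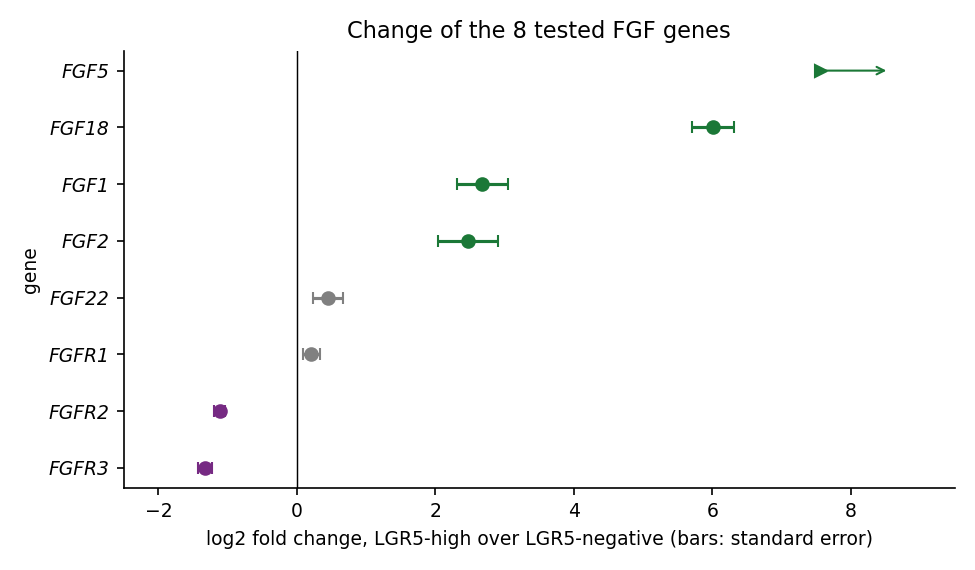
Log2 fold change of LGR5-high over LGR5-negative for the 8 tested genes, as points with bars of 1 SE. The SE was derived from the F statistic of edgeR's fit on 2 libraries per population. Green and purple genes were called higher and lower, grey genes did not pass, and the arrow for FGF5 starts at the lower bound of 7.57.

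The receptors showed the opposite picture, with FGFR2 and FGFR3 lower in LGR5-high. FGFR2, whose epithelial splice form binds FGF7 and FGF10, had 141 and 145 CPM in LGR5-high against 302 and 319 in LGR5-negative. Its log2 fold change was -1.12 (SE 0.08, edgeR adjusted p = 2.66e-04), so that LGR5-negative cells held 2.17-fold more. FGFR3, a receptor of the interfollicular epidermis, had 335 and 368 CPM in LGR5-high against 931 and 834 in LGR5-negative. Its log2 fold change was -1.33 (SE 0.10, edgeR adjusted p = 3.32e-04), a 2.51-fold difference. Neither receptor overlapped between the populations, and the estimates of the single pigs were -1.09 and -1.14 for FGFR2 and -1.47 and -1.18 for FGFR3. Bonferroni adjustment ended both calls (0.161 and 0.239), and the test on log2(CPM + 1) ended that of FGFR3. Both receptors remained measurable in LGR5-high, with 4781 to 12158 counts per library. Gene counts do not separate the splice forms of FGFR1, FGFR2 or FGFR3.

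FGFR1, the receptor best known from mesenchymal cells, had 40.6 and 45.4 CPM in LGR5-high against 40.1 and 34.4 in LGR5-negative. The log2 fold change was 0.21 (SE 0.12, edgeR adjusted p = 0.21) and rested on pig 95R, with 0.40 there and 0.02 in pig 88R. With library size only it was 0.43 and passed (adjusted p = 0.026). FGFR4 had 6 and 2 counts in LGR5-high and 3 and 10 in LGR5-negative, did not enter the test, and showed no detectable difference. Of the 8 tested genes, 6 had both LGR5-high libraries above both LGR5-negative libraries and 2 had both below. Among all tested genes these patterns held for 39.2% and 37.4%.

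The balance between receptors was also read within each library, where the scaling between libraries cancels. There were 0.287 and 0.314 FGFR1 counts for each FGFR2 count in LGR5-high of pigs 88R and 95R, and 0.133 and 0.108 in LGR5-negative. The mean ratio was 2.49-fold higher in LGR5-high. For each FGFR3 count there were 0.122 ± 0.00158 FGFR1 counts in LGR5-high and 0.0422 ± 0.00129 in LGR5-negative (SD, n = 2 pigs). FGFR2 counts per FGFR3 count were closer, at 0.422 and 0.393 in LGR5-high and 0.324 and 0.382 in LGR5-negative. None of these ratios overlapped between the populations, but for FGFR2 per FGFR3 the nearest values were 0.393 and 0.382. With 2 libraries against 2, a two-sided exact permutation test of a ratio cannot go below p = 0.333. As shares of all counts on FGFR1 to FGFR4, FGFR1 took 7.99% ± 0.201 in LGR5-high and 3.03% ± 0.179 in LGR5-negative (SD, n = 2). FGFR2 took 26.6% ± 0.988 and 25.3% ± 2.21, and FGFR3 took 65.4% ± 0.803 and 71.7% ± 2.04. The summed level of the 4 receptors was 538 ± 28.6 CPM in LGR5-high against 1230.2 ± 61.2 in LGR5-negative, while that of the 6 ligands was 79.5 ± 7.10 and 6.09 ± 0.374 CPM.

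**Figure D3:**
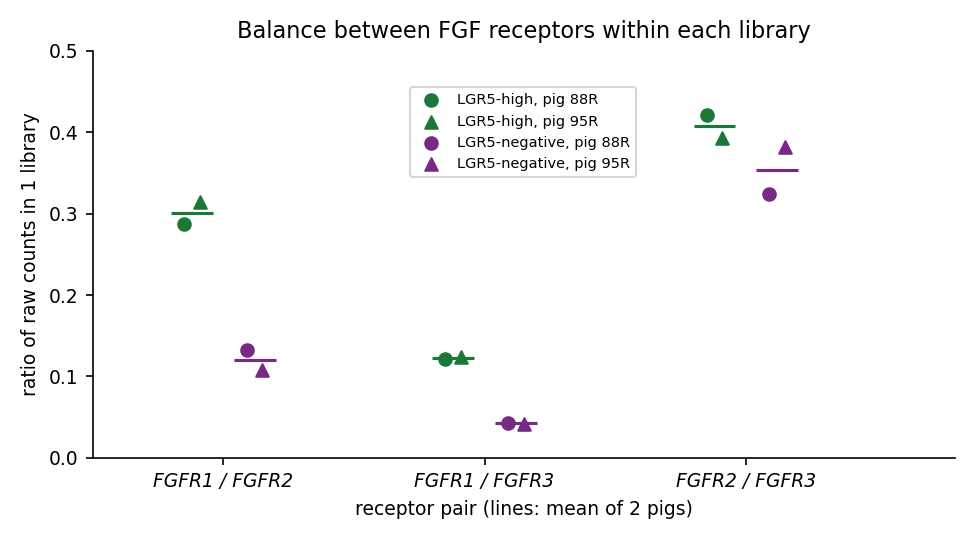
Ratios of raw counts between pairs of FGF receptors in each library, with LGR5-high in green, LGR5-negative in purple, circles for pig 88R, triangles for pig 95R and lines for the means of the 2 pigs. Both ratios with FGFR1 were higher in LGR5-high in both pigs, at 0.301 against 0.121 per FGFR2 count and 0.122 against 0.0422 per FGFR3 count on average.

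Among the FGF ligands outside the set, FGF9 was called higher. FGF9 passed the filter on low counts through LGR5-high alone, so its direction is no separate support. It had 71 and 53 counts in LGR5-high and 3 and 2 in LGR5-negative, a ratio of 21.6 with a 95% exact counting interval of 9.01 to 67.7 (edgeR adjusted p = 0.00112). FGF10, the papilla ligand related to FGF7, had 0 counts in both LGR5-high libraries and 3 and 5 in LGR5-negative. The endocrine ligands had few counts. FGF21 had 62 and 41 counts in LGR5-high and 28 and 27 in LGR5-negative (log2 fold change 0.70, edgeR adjusted p = 0.151), FGF19 had 0 in both LGR5-high libraries and 2 and 3 in LGR5-negative, and FGF23 had 5 and 1 against 0 in both LGR5-negative libraries. Of the 12 other secreted ligands, 2 passed the filter on low counts and 4 had 0 counts in all libraries. The 4 intracellular FGF homologous factors act on sodium channels rather than receptors. Of these, FGF14 was higher, with 18 and 10 counts against 0 and 1. The ratio was 24.4 with a 95% exact counting interval of 4.03 to 997. FGF14 too passed the filter through LGR5-high alone. Its call was lost with DESeq2 (adjusted p = 0.0508) and without the LGR5-negative library of pig 88R (edgeR adjusted p = 0.0601). FGF13, named after its values were seen, had 33 and 76 counts against 12 and 26 and was called only with the pig as a replicate block (log2 fold change 1.32, edgeR adjusted p = 0.00685).

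Most of the co-receptors and binding proteins were higher in LGR5-high. Of 9 tested genes, 7 were higher and 0 lower, against 22.7% and 22.0% of all tested genes, and the median log2 fold change was 1.92. Some of the higher genes passed the filter on low counts through LGR5-high alone. The share of higher genes is therefore no support for a direction of this list. At an unadjusted p-value under 0.05 edgeR gave 0 lower genes, and the adjusted calls of DESeq2 and limma-voom gave 0 as well. These readings used the same libraries and the same filter, so they are not separate support. The adhesion molecules NCAM1 and CDH2 (N-cadherin), which can bind FGF receptors, and FLRT1, a membrane partner of FGFR1, had the largest increases. NCAM1 had 208 and 183 counts in LGR5-high and 3 in each LGR5-negative library, a ratio of 56.8 with a 95% exact counting interval of 25.8 to 156. FLRT1 had a log2 fold change of 5.30 (SE 0.33) and CDH2 one of 4.44 (SE 0.65). Both values leaned on single LGR5-negative libraries. Without that of pig 95R they were 6.06 for FLRT1 and 6.44 for CDH2, and without that of pig 88R CDH2 was at 3.65. FGFBP1, which carries FGFs off the matrix and was named after its values were seen, had 47.9 and 77.1 CPM in LGR5-high against 19.9 and 17.4 in LGR5-negative. The klotho co-receptor genes of the endocrine ligands did not differ in this way. KL had 0 counts in all libraries, and KLB had a log2 fold change of -0.21 (SE 0.16) that turned to 0.01 with library size only. FGFRL1, a receptor without a kinase domain, had 0.05 (SE 0.15).

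Heparan sulfate is the co-factor that FGF ligands need on the cell surface. Of the 11 core proteins that carry it, 8 were higher, 2 were lower and the median log2 fold change was 1.34. Over all tested genes, 22.7% were higher and 22.0% lower, and GPC5 passed the filter on low counts through LGR5-high alone. The syndecan SDC2 had 112 and 96.1 CPM in LGR5-high against 5.47 and 5.96 in LGR5-negative (log2 fold change 4.19, SE 0.13, edgeR adjusted p = 4.46e-05). The glypican GPC6 had a log2 fold change of 3.70 (SE 0.24). GPC5 had 35 and 13 counts in LGR5-high and 0 in both LGR5-negative libraries, and was at least 6.90-fold higher, a call that could not be tested without the LGR5-high library of pig 88R. SDC4 fell by 0.82 on the log2 scale (SE 0.11) and GPC3 by 1.07 (SE 0.22), and the call of GPC3 was lost without the LGR5-high library of pig 88R, where its log2 fold change was -0.91 (edgeR adjusted p = 0.0626). Of the 24 tested enzymes that build or trim the chains, 9 were higher, 4 lower and 11 were not called, with a median of 0.10. Among the higher enzymes, HS3ST4, HS3ST5 and HS6ST2 passed the filter through LGR5-high alone. EXTL1 and HS3ST2, named after their values were seen, did so too. The share of higher enzymes is therefore no support for a direction of this list. The sulfotransferases moved in both directions. HS3ST4 had 30 and 60 counts against 0 in both LGR5-negative libraries and was at least 13.1-fold higher. HS3ST5 had 106 and 99 counts against 1 and 3, a ratio of 44.6 (interval 17.2 to 165), and HS6ST2 had 126 and 209 against 2 and 7. Its log2 fold change of 5.00 was 6.07 without the LGR5-negative library of pig 95R and 4.40 without that of pig 88R. HS3ST3B1 and HS3ST6 were lower, with log2 fold changes of -2.22 and -1.53. SULF2, which removes sulfate groups that FGF binding uses, had a log2 fold change of -0.41. This call was lost without the LGR5-high library of pig 88R (-0.30, adjusted p = 0.0971) and without its LGR5-negative library (-0.38, edgeR adjusted p = 0.0675), and with upper quartile scaling (adjusted p = 0.0581) and library size only (-0.18, adjusted p = 0.175).

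**Figure D4:**
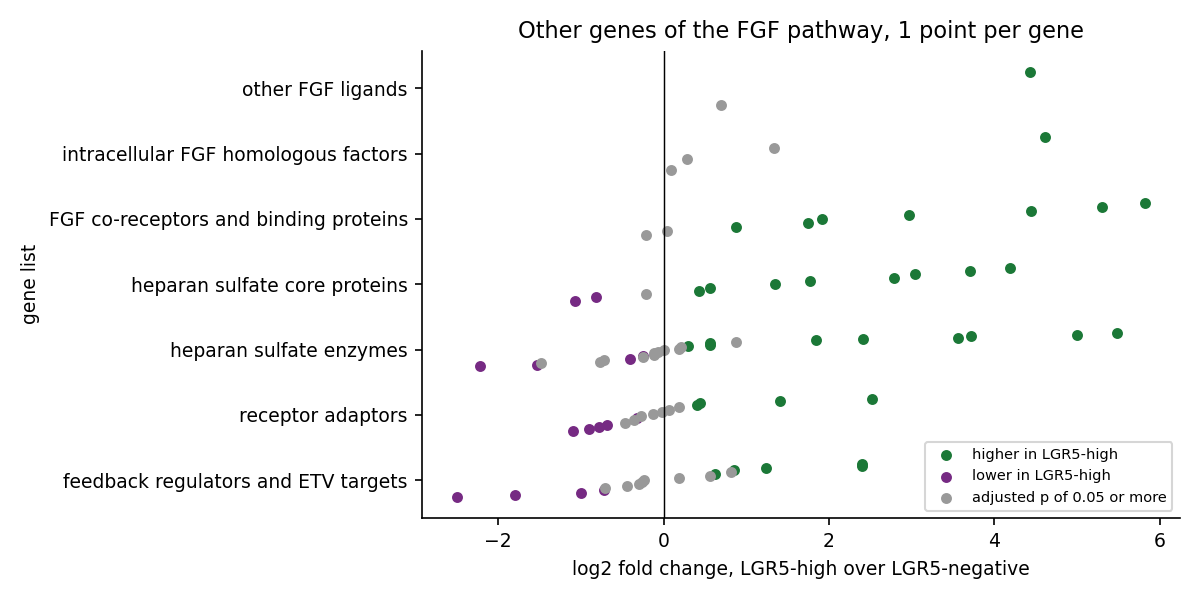
Log2 fold change of LGR5-high over LGR5-negative for the 83 tested genes of the 7 other FGF pathway lists, 1 point per gene, green for called higher, purple for called lower and grey for not called. Genes at 0 counts in both LGR5-negative libraries are drawn at their lower bound, and those with 1 to 3 counts at the ratio of counts. The co-receptor list had 7 of 9 genes called higher, against 22.7% of all tested genes, and the adaptors and feedback regulators lay on both sides of 0.

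Inside the cell, the adaptors did not follow one direction. Of 16 tested genes, 4 were higher and 5 lower, with a median log2 fold change of -0.20, and with the pig as a replicate block 4 were higher and 8 lower. FRS2, the main FGF receptor adaptor, had 31.8 and 28.6 CPM in LGR5-high against 27.4 and 30.1 in LGR5-negative (log2 fold change 0.07, edgeR adjusted p = 0.644) and was named after its values were seen. The docking protein GAB2 had a log2 fold change of 2.52 (SE 0.19), PLCG1 one of 0.44 and FRS3 one of 1.41. FRS3 lost its call without the LGR5-high library of pig 95R (edgeR adjusted p = 0.109). SHC1, GAB1 and CRKL were lower, with -1.09, -0.90 and -0.78. Of 17 tested feedback regulators and transcription factor targets, 5 were higher and 4 lower, and 7 and 7 with the replicate block. SPRED3, IL17RD and ETV4 had log2 fold changes of 2.40, 2.39 and 1.24, while MYC was lower with -1.80, DUSP7 fell from 393 and 378 CPM in LGR5-negative to 204 and 180 CPM, and FOSL1 fell from 331 and 293 CPM in LGR5-negative to 54.6 and 55.6 CPM. Over all 7 lists, 35 of 83 tested genes were higher and 15 lower, against 22.7% and 22.0% of all tested genes, and 38 and 22 with the replicate block. Several of the higher genes passed the filter on low counts through LGR5-high alone, so the share of higher genes is no support for a direction of the lists. With at least 10 counts required in every library, 25 were higher and 15 lower.

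The genes whose pattern over the 4 libraries was most like that of FGF5, by the Euclidean distance of centred log2 CPM, were ADRA2A, CAPN6 and GRIK3 at distances of 0.503, 0.599 and 0.767. CAPN6 had 411 and 461 counts in LGR5-high and 0 in both LGR5-negative libraries, and GRIK3 had 2921 and 3547 against 3 and 7. For FGFR3, the member with the lowest log2 fold change, the nearest genes were PRSS8, LOC110260057 and CASP8, at distances of 0.0169, 0.0229 and 0.0243. FGF5 and CAPN6 were at 0 counts in both LGR5-negative libraries, so the distances to FGF5 and their order depend on the prior count of 2 added before the log. Distances over 4 libraries are a description only.

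The libraries held between 30696803 and 32463362 counts on named genes. Cell type markers moved with the sort in several lists, where 22.7% of all tested genes were higher and 22.0% lower. Outer root sheath and bulge markers were higher for 7 of 10 tested genes and lower for 1 (summed level 5869 and 7167 in LGR5-high against 6149 and 6843 CPM). Most of that sum was POSTN, the gene called lower (2975 and 3052 against 5297 and 5351 CPM), and KRT15, which was not called (1116 and 2345 against 715 and 1324 CPM). The sorted gene LGR5 had 4551 and 6224 counts against 36 and 109. Interfollicular differentiation markers were lower for 7 of 9 (6800 and 6201 against 67798 and 58688 CPM), and basal keratinocyte markers for 4 of 6 (29603 and 31466 against 38001 and 34891 CPM). Inner root sheath markers were higher for 5 of 7 and lower for 1 (1463 and 1175 against 576 and 624 CPM), and hair shaft markers higher for 1 and lower for 4 of 11 (284 and 206 against 511 and 376 CPM). Of the cells that are not keratinocytes, immune markers were lower for 6 of 7 (16.5 and 8.75 against 177 and 157 CPM), endothelial markers for 5 of 6 (6.28 and 7.60 against 21.4 and 21.5 CPM) and melanocyte markers for 5 of 8 (64.5 and 64.2 against 86.7 and 264 CPM). Smooth muscle markers were higher for 4 of 5 (404 and 292 against 15.4 and 15.3 CPM), most of it TAGLN. CNN1, ACTA2 and MYH11 were also called higher, by 13.0-fold, 4.22-fold and 1.88-fold. ACTG2 was not called, and the muscle gene DES had at most 2 counts in any library. Nerve markers were higher for 2 of 5 and lower for 1 (62.4 and 81.8 against 16.0 and 20.1 CPM). Sebaceous markers were higher for 2 of 4 (393 and 404 against 268 and 287 CPM). The sebaceous sum was mostly SCD, called higher, and PLIN2, which was not called. FADS2 was also called higher, AWAT2 was not called, and AWAT1 had 0 counts in all libraries. MC5R and PPARG did not enter the test. The part of these cell types in the FGF results was not tested.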

How the data were processed

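RNA of sorted LGR5-high and LGR5-negative cells from pigs 88R and 95R was sequenced after poly(A) selection, with 1 library for each population and pig. The values deposited by the authors are raw counts for each gene symbol, not normalized. The submitters' processing notes list Trimmomatic 0.36, STAR 2.5.2b, featureCounts and Subread 1.5.2. The genome build, annotation and strand setting are not given in the sources used here. The entry without a name held 0.360% to 0.626% of the counts and was left out.

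The comparison was made over all genes with edgeR 4.0.16 (R 4.3.3). Genes were kept by filterByExpr (minimum count 10, minimum total 15), scaling was by TMM, and population was the single term of the quasi-likelihood fit, with two-sided tests, Benjamini-Hochberg adjustment and a threshold of 0.05. The prior count was 0.125 for fitted log2 fold changes and 2 for single pigs. The SE of an edgeR log2 fold change is its absolute value divided by the square root of the quasi-likelihood F statistic. CPM are given on the library sizes of the tested genes. A floor of 3 counts per library and the intervals cover counting error only. The 2 libraries of a pig come from the same animal, and across genes, their deviations from the mean of their population correlated at 0.370. The p-values of the main fit rest on the spread between the 2 pigs within each population, with variance information shared across all tested genes. That fit treats the 2 libraries of a pig as independent.

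Alternatives were DESeq2 1.42.0 or its size factors, upper quartile scaling, library size only, 2 other filters, the pig as a replicate block, limma-voom (limma 3.58.1), Student's t-test (named in the study's methods, and run here on log2(CPM + 1), a scale chosen for this work), Bonferroni adjustment, a prior count of 2, and leaving out each library. The tests were also run on simulated data with 200 changed genes and a lower dispersion than in these data. Here 7140 genes were called, so that run does not measure the error rate of the tests in these data. The members, gene lists and markers were chosen with earlier results of these data known. Besides the members, the genes named in each pathway list were up to 3 called genes with the largest positive and up to 3 with the largest negative log2 fold change that moved the same way in both pigs, together with KL, KLB, FGFRL1 and every other FGF ligand with 3 or more counts in any library. Other genes named were markers, genes that overlap a member, the 3 genes nearest in pattern to the members with the highest and the lowest log2 fold change, by Euclidean distance on centred log2 CPM with a prior count of 2, and those stated to be named after their values were seen. No sequences were read.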

Additional observations from a re-analysis of the deposited data

How the results depend on the processing

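All 8 tested members kept the direction of their log2 fold change under the 15 alternatives that could be computed for them, FGF5 being left out of the test where at least 10 counts were required in every library. The counts of 4 higher and 2 lower members stood with DESeq2, its size factors, upper quartile scaling, limma-voom, all genes with at least 1 count, and without each library in turn. With the pig as a replicate block, whose pairing check gave 0.370, there were also 4 and 2, and no call of a member changed. Library size only gave 6 and 2, with FGF22 and FGFR1 added, and shifted the median over all genes from 0.02 to 0.24 (log2). Requiring 10 counts in every library gave 3 and 2. On log2(CPM + 1) with Student's t-test, 2 members were higher and 1 lower (FGF1, FGF2 and FGFR3 were lost, at adjusted p-values of 0.097, 0.111 and 0.0575), and 10 pathway genes higher and 4 lower. Bonferroni adjustment kept 2 higher and 0 lower members, and 3 and 1 pathway genes, since it applies a stricter threshold to the same p-values, of which those of FGFR2 and FGFR3 were both under 0.05 unadjusted in edgeR. For the t-test the cause was not tested. Pathway genes numbered 35 higher and 15 lower in the main test, and between 25 and 39 higher and 11 and 22 lower under the other settings. KLB turned from -0.21 to 0.010 with library size only, and FGFRL1 lay between -0.033 and 0.11 when each library was left out. Where a population is left with 1 library, that library is assumed to vary like the others. Depth limits FGF7 and FGFR4, with at most 10 counts in any library. FGF14 and GPC5 could not be tested without the LGR5-high library of pig 88R, since they did not pass the filter there.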
